A study of Mus musculus with 26 samples.

Results

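The set described here comprises 167 pairs of neighbouring mouse genes in which a read-in estimate appeared during heat. It was taken from 6399 pairs of an upstream gene and its downstream neighbour, for each of which the authors deposited 1 estimate per RNA library, a ratio of at least 0. A pair entered when its estimate was exactly 0 in both heat control libraries and finite and above 0 in both libraries from cells held at 44 °C for 2 h. Of the 6399 pairs, 2672 were at 0 in both controls and 251 of these (9.39%) were above 0 in both 44 °C libraries. From the 251, 84 pairs were left out because they were at 0 in both libraries of the H2O2/KCl control and above 0 in both libraries after 2 h of H2O2 or after 2 h of KCl, which left 167. The pairs were thus chosen by the heat control and 44 °C estimates, and the members' values from that contrast are given as a description, without a test.

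The cells were NIH3T3, an established line of mouse embryonic fibroblasts, and the 16 RNA libraries were made from polyA-selected RNA in 8 groups of 2 replicates. The heat experiment held a control, 44 °C for 2 h and 42 °C for 8 h. The heat treatments differ in both temperature and duration, so 42 °C is not a later time of the 44 °C cells. A pair is said to persist when its estimate was also above 0 in both 42 °C libraries. Whether a gain at 44 °C lasts over time cannot be seen from these groups. The other experiment held a shared control, oxidative stress (H2O2) for 2 h and 7 h, and osmotic stress (KCl) for 2 h and 7 h. Ribosome footprints, the mRNA fragments covered by ribosomes, were sequenced in 10 further libraries of the H2O2/KCl experiment and in none of the heat groups. The labels do not say whether replicates came from separate cultures, so p-values measure the spread between these libraries, which may be technical.

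Transcription by RNA polymerase II normally ends soon after the nascent RNA is cleaved at a poly(A) signal and the exonuclease Xrn2 degrades the uncapped remainder. Under heat, osmotic and oxidative stress the polymerase can run on past the gene end, which yields DoGs (downstream-of-gene transcripts). Where such a transcript reaches the next gene on the same strand it is called read-in, and it can place reads on a gene whose own promoter is not active. Heat also activates the transcription factor HSF1, which binds arrays of inverted GAA repeats (heat shock elements) in the promoters of chaperone genes.

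The 4 windows below, of 250 bases each, show the DNA before the start of member genes. They are printed 5′ to 3′ on the strand of the gene from RefSeq (GRCm38.p6). The windows of Gpr62, Tnfrsf13c and Lsmem1 end just before the start of the downstream gene in the pairs that had both 1 of the 8 highest estimates at 44 °C and 1 of the 8 highest at 42 °C: Parp3-Gpr62 (chr9:106465986-106466235, minus strand), Cenpm-Tnfrsf13c (chr15:82224381-82224630, minus strand) and Ifrd1-Lsmem1 (chr12:40199316-40199565, minus strand). Each lies between the 2 genes of its pair, where a transcript arriving from upstream would have to pass. The last ends before the start of Ahcy (chr2:155074498-155074747, minus strand), the upstream gene of Ahcy-Eif2s2, and its capitals mark a heat shock element.
Gpr62: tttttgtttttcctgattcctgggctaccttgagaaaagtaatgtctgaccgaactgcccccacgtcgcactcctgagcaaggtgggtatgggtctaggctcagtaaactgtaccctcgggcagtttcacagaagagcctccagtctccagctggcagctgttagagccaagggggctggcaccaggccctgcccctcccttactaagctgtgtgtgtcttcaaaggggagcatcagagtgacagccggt
Tnfrsf13c: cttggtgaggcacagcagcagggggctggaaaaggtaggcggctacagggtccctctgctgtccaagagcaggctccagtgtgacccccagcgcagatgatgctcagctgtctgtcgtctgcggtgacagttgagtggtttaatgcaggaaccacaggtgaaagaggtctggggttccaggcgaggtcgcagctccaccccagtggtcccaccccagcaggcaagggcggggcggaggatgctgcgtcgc
Lsmem1: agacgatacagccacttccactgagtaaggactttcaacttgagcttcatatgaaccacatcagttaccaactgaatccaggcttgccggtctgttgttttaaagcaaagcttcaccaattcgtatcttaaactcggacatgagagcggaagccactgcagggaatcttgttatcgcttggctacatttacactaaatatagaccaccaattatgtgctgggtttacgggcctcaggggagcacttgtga
Ahcy: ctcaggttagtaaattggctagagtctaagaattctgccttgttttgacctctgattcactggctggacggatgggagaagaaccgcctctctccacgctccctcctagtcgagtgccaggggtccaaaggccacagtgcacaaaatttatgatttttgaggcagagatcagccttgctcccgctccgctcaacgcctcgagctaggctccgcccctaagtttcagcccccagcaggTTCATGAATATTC
A heat shock element was searched as GAA, TTC and GAA in a row, or TTC, GAA and TTC, with 2 free bases between neighbours; these are reverse complements, so both strands were covered. It was present before 1 of the 130 upstream genes with a promoter entry (0.769%), that of Ahcy, against 0.612% of 4905 upstream genes of all pairs and 0.662% of 27025 promoters. The poly(A) signals AATAAA and ATTAAA, searched on the strand of the gene, were absent from the windows of Gpr62, Tnfrsf13c and Lsmem1. They stood in the 250 bases before 9 of 129 downstream genes (6.98%), against 11.5% of 4871 downstream genes of all pairs and 18.0% of all promoters. A match is a string of letters, not a site shown to be used, and the ends of the upstream genes were not searched.

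All 8 fibroblast markers were expressed in every RNA library, with Vim between 1783 and 4402 TPM (a level scaled to transcript length and library size) and Col1a1 between 694 and 2835 TPM. The heat control and the H2O2/KCl control were not alike at every marker. Thy1 was at 61.7 and 64.2 TPM in the first and 11.2 and 11.5 TPM in the second, and Col3a1 at 672 and 702 against 211 and 200 TPM. Vim was close, at 3309 and 3336 against 3460 and 3492 TPM. A bearing of such differences on the estimates was not tested. Of the markers of other cell types, Cd3e was at 0 throughout, and Ptprc, Cdh5, Myod1, Ckm and Cdh1 stayed below 1 TPM and Epcam, Pecam1 and Kdr at or below 2.58 TPM, while Krt18 ranged from 6.46 to 17.2 TPM and Cd68 from 5.32 to 44.7 TPM. Each of 16 HSF1 chaperone genes was called higher at 42 °C (edgeR's quasi-likelihood test, adjusted p under 0.05, against 31.7% of all genes), with Hspa1b at 65.8 and 85.2 TPM in the heat control, 537 and 653 TPM at 44 °C and 5617 and 5629 TPM at 42 °C. Total expected counts were 42698179 and 36061919 in the heat control, 34537993 and 32805080 after 44 °C, and 37786628 and 30452066 after 42 °C. Both control totals were thus above both 44 °C totals. They are sums of counts assigned to genes, and a bearing of depth on the estimates was not tested.

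Most estimates of the 167 pairs were small. Taking the lower of each pair's 44 °C values, the median was 0.00371, with quartiles of 0.00142 and 0.0146 and a range from 1.5e-05 to 1.2. It reached 0.01 in 53 pairs, 0.1 in 19 and 0.5 in 5. The replicates at 44 °C lay within 2-fold of each other in 101 of the 167 pairs, and the median ratio of the higher to the lower was 1.57. The reverse change, above 0 in both controls and at 0 in both 44 °C libraries, was found in 61 pairs. A further 506 pairs at 0 in both controls were above 0 in exactly 1 of the 44 °C libraries.

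Of the 19 members whose lower 44 °C estimate was at least 0.1, 17 had a downstream gene below 1 TPM on average in the heat control. Among the 143 other members with an RNA row for the downstream gene, 2 did. The plot of estimate against downstream level shows the pairs falling along a descending band. In 41 of 159 members with enough values the estimate multiplied by the downstream gene's expected count came out as a whole multiple (within 0.02) of 1 constant for the pair, called a step here; so it did in 1061 of 3560 pairs in all. The remaining members showed no such step or had too few values, and the counts of steps below do not describe them. What 1 step stands for was not stated in the labels or files. Within a pair with a step, an equal number of steps gives a lower estimate where the downstream count is higher. The size of an estimate is therefore not read here as an amount of read-in.

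**Figure D1:**
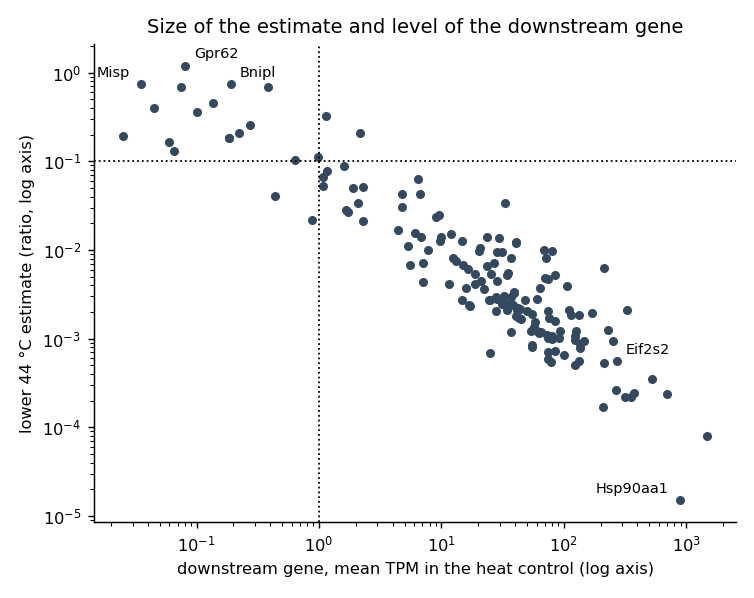
Lower of the 44 °C read-in estimates of each member pair (vertical log axis, a ratio) against the mean TPM of its downstream gene in the heat control (horizontal log axis), 1 point per pair with an RNA row. Dotted lines mark 1 TPM and an estimate of 0.1; 17 of the 19 pairs at or above 0.1 lie left of 1 TPM, and Hsp90aa1 is at the lower right with 1.5e-05.

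Of the 41 members with a step, 19 had exactly 1 step in both 44 °C libraries, 27 had 1 or 2 in both, and 1 had 5 or more in both. Summed over the 41 pairs, there were 0 steps in each heat control library, 75 and 92 at 44 °C, 75 and 70 at 42 °C, and 11 and 30 in the H2O2/KCl control. In these 41 pairs the 42 °C libraries held more steps than either library of the H2O2/KCl control. The rule for members did not use the 42 °C libraries. Their values did count towards finding a step, so they had a part in choosing the 41 pairs, and the contrast is a description.

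The 8 pairs with the highest lower estimate at 44 °C ended in downstream genes that fibroblasts barely express. Parp3-Gpr62 led, with Parp3, a poly(ADP-ribose) polymerase, upstream of the orphan receptor gene Gpr62. Its estimates were 0 and 0 in the heat control, 4.23 and 1.20 after 44 °C, 1.95 and 2.44 after 42 °C, and it also had 1.98 and 0.434 in the H2O2/KCl control. Its first H2O2/KCl control value fell among its heat-stress values. Cenpm-Tnfrsf13c joins a centromere protein gene to the gene of the B cell receptor for BAFF. Its estimates were 0.693 and 1.09 at 44 °C, 0.635 and 1.91 at 42 °C, and 0.318 and 0.48 in the H2O2/KCl control, so that every heat-stress value was above both values of that other control. Ifrd1-Lsmem1 had 0.607 and 0.404 at 44 °C, which were 1 step each, 0.607 and 0.97 at 42 °C, which were 2 and 4 steps, and 0.607 in both libraries of the H2O2/KCl control, 1 step each.

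In 3 of the other pairs described here the estimate was not above 0 in both 42 °C libraries. Palm-Misp, whose genes lie 103 bases apart, had 2.1 and 0.738 at 44 °C, 0 and 2.89 at 42 °C, and higher values in the H2O2/KCl control (23.1 and 7.96) than in any heat library. Pold1-Spib runs from the catalytic subunit of DNA polymerase delta to Spib, a B cell transcription factor, and had 1.63 and 0.69 at 44 °C against 0.177 and 0 at 42 °C. Rps6kb2-Cabp4, from a ribosomal S6 kinase gene to a calcium-binding protein gene of photoreceptors, had 0.478 and 0.359 at 44 °C and was at 0 in both 42 °C libraries. In contrast, Prune-Bnipl had 0.749 and 2.2 at 44 °C and lower values of 0.065 and 0.208 at 42 °C, which were above its heat control. Each of the pairs named here had an estimate above 0 in at least 1 library of the H2O2/KCl control.

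**Figure D2:**
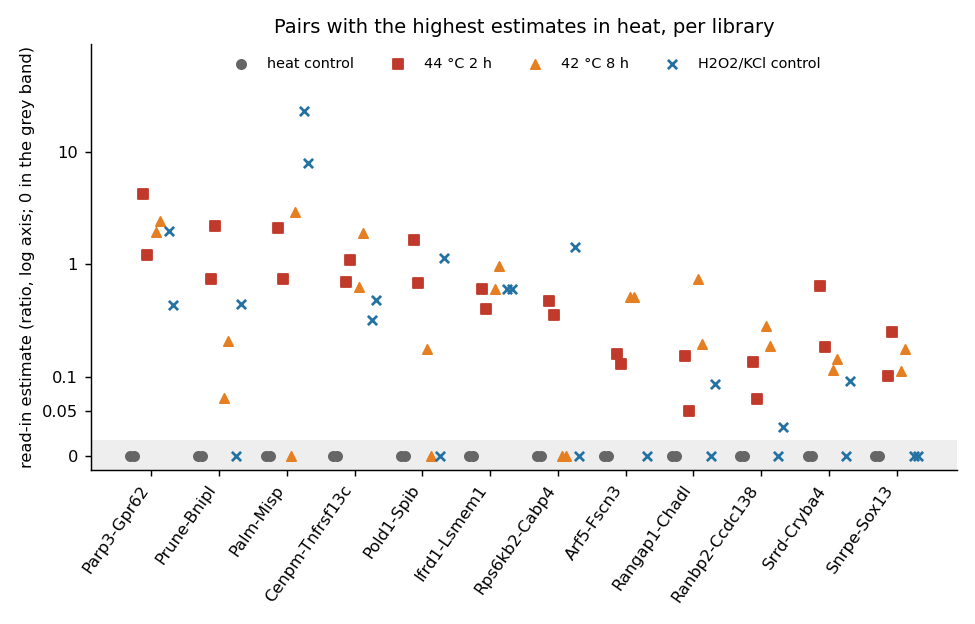
Read-in estimates (vertical log axis, a ratio) of 12 of the pairs with the highest estimates at 44 °C or at 42 °C, 1 symbol per library, for the heat control, 44 °C 2 h, 42 °C 8 h and the H2O2/KCl control; estimates of 0 stand in the grey band and missing ones are not drawn. All heat control symbols are in the band, and Palm-Misp is highest in the H2O2/KCl control, at 23.1 and 7.96.

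At the other end, the smallest estimates belonged to pairs with strongly expressed downstream genes. Mok-Hsp90aa1 had the lowest estimates of the set, 1.5e-05 and 1.53e-05 at 44 °C and 9.93e-05 and 3.12e-05 at 42 °C. Hsp90aa1 encodes the inducible cytosolic HSP90 and was the 1 member gene on the HSF1 list, at 900 and 874 TPM in the heat control, 4345 and 4388 TPM at 44 °C and 2249 and 2242 TPM at 42 °C. In steps its values were 1 and 1 at 44 °C, 4 and 1 at 42 °C, and 0 and 2 in the H2O2/KCl control, over a gap of 111402 bases between the genes. The next smallest lower estimates belonged to D11Wsu47e-Rpl38 (8.07e-05), Foxl1-Map1lc3b (0.000169), Skp1a-Vdac1 (0.000218) and Depdc5-Ywhah (0.000221). Just outside the rule, with 1 of the 44 °C libraries at 0, the largest values in the other library were 2.57 for Pip4k2a-Carlr, 2.44 for Vps39-Pla2g4f and 2.2 for Fopnl-Myh11. These 3 values, picked as the largest among 506 such pairs, were in the range of the highest members. The rule left these pairs out because their replicates disagreed. The sizes of the 506 pairs were not compared with those of the members.

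At 42 °C for 8 h, the milder and longer heat, 70 of the 167 pairs (41.9%) were above 0 in both libraries, 50 in 1 and 47 in neither. Among the 2421 pairs at 0 in both heat controls that were not above 0 in both 44 °C libraries, the share was 6.82%. It was higher the larger the number of 44 °C libraries above 0, from 4.35% of 1838 pairs with both at 0, to 16.4% of 506 pairs with 1 above 0, to the 41.9% of the members. The 84 pairs shared with H2O2 or KCl stood at 39.3%. Over all 6399 pairs the share was 32.0%, with pairs included that had estimates above 0 in the control. The 44 °C and 42 °C values are set against the same control libraries, so these shares are not independent of the rule's condition on the control.

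**Figure D3:**
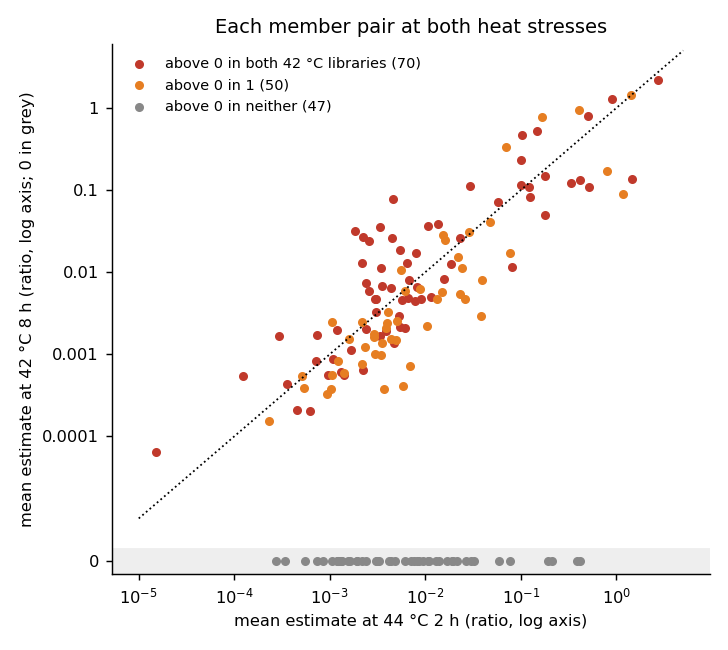
Mean read-in estimate at 42 °C 8 h (vertical log axis, a ratio, with 0 in the grey band) against the mean at 44 °C 2 h (horizontal log axis) for the 167 member pairs, coloured by the number of 42 °C libraries above 0. The dotted line marks equal means, and the 70 pairs above 0 in both 42 °C libraries lie on both sides of it, 37 of them above.

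The pairs that persisted were neither uniformly stronger nor weaker at 42 °C. Of the 70, 37 had a higher mean estimate at 42 °C than at 44 °C, and the median ratio of the means was 1.14. The median lower 44 °C estimate was 0.00413 for the 70 pairs, 0.00374 for the 50 above 0 in 1 library and 0.00277 for the 47 above 0 in neither. The median gap between the genes was 14139 bases in the 62 placed pairs that persisted and 34635 bases in the 91 that did not.

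The highest estimates at 42 °C, beside those of Parp3-Gpr62, Cenpm-Tnfrsf13c and Ifrd1-Lsmem1, were found in 5 further pairs. Arf5-Fscn3, from a small GTPase gene to a testis fascin gene 1267 bases away, had 0.162 and 0.13 at 44 °C and 0.518 and 0.518 at 42 °C. Rangap1-Chadl, from the gene of the Ran GTPase activator, had 0.153 and 0.0501 at 44 °C and 0.745 and 0.196 at 42 °C. Ranbp2-Ccdc138, from a nucleoporin gene, had 0.135 and 0.064 at 44 °C and 0.282 and 0.188 at 42 °C. For these 3 pairs both 42 °C values were above both 44 °C values. Srrd-Cryba4, which ends in a lens crystallin gene, had 0.647 and 0.185 at 44 °C and 0.116 and 0.145 at 42 °C. Snrpe-Sox13, from a spliceosomal Sm protein gene, had 0.103 and 0.252 at 44 °C and 0.114 and 0.179 at 42 °C, where the groups overlap.

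The members stood at 0 in the heat control by the rule, and the H2O2/KCl control was the second control of the study. Over all pairs the share above 0 was 33.9% and 33.9% in the heat control libraries and 28.1% and 31.6% in those of the H2O2/KCl control. Of the 167 members, 114 (68.3%) were above 0 in at least 1 library of the H2O2/KCl control, 28 of them in both, against 10.2% of the 2421 pairs at 0 in the heat control that were not above 0 in both 44 °C libraries. Part of this comes from the rule, which left out 84 pairs at 0 in that control; with them kept the share was 45.4% of 251. By library, 31.1% and 53.9% of the members were above 0 in the H2O2/KCl control. At 42 °C, 58.7% and 55.1% of the members were above 0, against 40.3% and 41.1% of all pairs. After 2 h of H2O2 the members stood at 58.1% and 60.5% (all pairs 46.6% and 48.8%), and after 2 h of KCl at 47.9% and 53.3% (all pairs 37.8% and 38.1%). At 7 h they were 35.9% and 40.7% with H2O2 (33.3% and 34.8%) and 34.7% and 37.7% with KCl (32.7% and 31.6%). The second library of the H2O2/KCl control thus lay close to the 42 °C libraries. Its total expected count was 35775040, against 45244430 in the first, so the control library with the higher total had fewer members above 0.

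**Figure D4:**
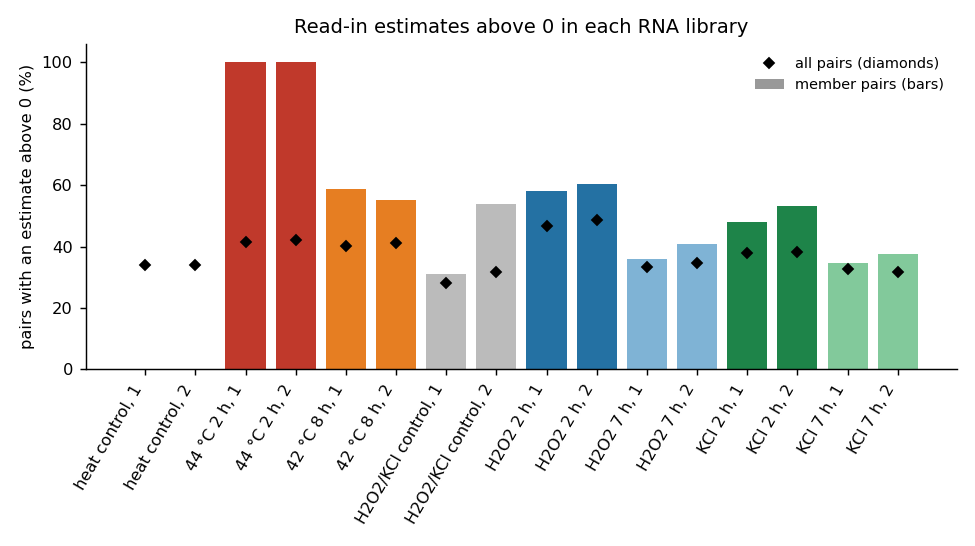
Share of pairs with a read-in estimate above 0 (vertical axis, percent) in each of the 16 RNA libraries, as bars for the 167 member pairs and diamonds for all 6399 pairs. The 0% in the heat control and 100% at 44 °C are set by the rule, and the bars of 58.7% and 55.1% at 42 °C stand beside 31.1% and 53.9% in the H2O2/KCl control.

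In all 14 libraries other than the heat control, 4 members were above 0, namely Rabggta-Tgm1, Fbxw2-Rabepk, Pgam1-Zdhhc16 and Ptk7-Srf. In Rabggta-Tgm1, from the gene of an enzyme subunit that lipidates Rab proteins to a transglutaminase gene, the estimates were 0.0787 and 0.164 at 44 °C, 0.0612 and 0.156 at 42 °C, 0.0827 and 0.0918 in the H2O2/KCl control and 0.759 and 1.29 after 2 h of KCl. Its H2O2/KCl control values fell within its heat-stress values, and its KCl values were above all of these. Over the set, both H2O2 2 h estimates were above both 44 °C estimates in 33 pairs, and both KCl 2 h estimates in 38.

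Under the stricter condition that a pair also be at 0 in both H2O2/KCl control libraries, 51 members remained, of which 16 were above 0 in both 42 °C libraries. After 7 h of H2O2, 5 of the 51 were above 0 in both libraries, against 6.95% of 2863 pairs at 0 in that control. After 7 h of KCl, 1 of the 51 was, against 5.41%. Members exclude pairs at 0 in that control and above 0 in both libraries after 2 h of H2O2 or KCl. The 2863 pairs include such pairs, so these shares are not like for like. Ctsd-Ifitm10, from the gene of the lysosomal protease cathepsin D to an interferon-induced transmembrane gene 2130 bases away, is 1 of the 16, with 0.0736 and 0.0424 at 44 °C and 0.0831 and 0.0605 at 42 °C. Its estimates at the 2 temperatures overlap, and among the controls and the 2 h stresses of the other experiment only the second H2O2 library was above 0, at 0.0119.

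In all 10 libraries of the H2O2/KCl experiment 6 members were at 0, and 1 of them, Ahcy-Eif2s2, was above 0 in all 4 heat-stress libraries. Ahcy encodes adenosylhomocysteinase and carries the heat shock element in the window printed above. Eif2s2 encodes the beta subunit of the initiation factor eIF2. The estimates were 0.000562 and 0.000858 at 44 °C and 0.00101 and 0.000637 at 42 °C, which were 2, 3, 4 and 2 steps. The genes are 166403 bases apart, no DoG was called for the pair in either 42 °C library, and the pair was singled out after its values were seen. Ahcy RNA was 200 and 201 TPM in the heat control, 138 and 136 TPM at 44 °C and 246 and 234 TPM at 42 °C, below the control at the first and above it at the second. In the 44 °C libraries alone 3 members were above 0, among them Nqo1-Terf2 (0.00332 and 0.00622) and Mea1-Pex6 (0.00371 and 0.00277).

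The authors also gave each pair a read-in call, true or false, in every library. No member was called in any of the 6 heat libraries, against 161 of all 6399 pairs (2.52%). Both 44 °C libraries were called in 78 pairs (1.22%). In the H2O2/KCl experiment 4 members (2.4%, against 4.94% of all pairs) were called in at least 1 library, each at 2 h: Eif3d-Foxred2, Rangap1-Chadl, Fosl1-Fibp and Chtop-Snapin. Eif3d-Foxred2, from a translation initiation factor gene to its neighbour 494 bases away, had 0.00987 and 0.0114 at 44 °C, 0.031 and 0.0414 at 42 °C, and 0.336 and 0.312 after 2 h of KCl, where it was called in both libraries. Its KCl estimates were above all of its heat estimates.

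A DoG was called at the upstream gene of 48 and 49 members in the heat control libraries (28.7% and 29.3%, against 27.9% and 26.5% of all pairs), of 66 and 65 at 44 °C (39.5% and 38.9%, against 32.7% and 32.7%) and of 55 and 56 at 42 °C (32.9% and 33.5%, against 32.0% and 30.5%). In the heat control 31 members (18.6%) had a DoG called in both libraries, against 15.7% of all pairs, 38 (22.8%, against 19.5%) at 44 °C and 32 (19.2%, against 17.6%) at 42 °C. A DoG that was called in neither control library and in both 44 °C libraries was found in 5 members, against 4.06% of all pairs. These were Rabggta-Tgm1, Ctsd-Ifitm10, Hist1h2bk-Hist1h2bj, Neurl4-Gps2 and Mms19-Exosc1, named after their values were seen. None of the 5 had a DoG call in both 42 °C libraries, against 61 of the 260 such pairs in all (23.5%). Of the 5, 4 had read-in estimates above 0 in both 42 °C libraries, among them Mms19-Exosc1 with 0.00617 and 0.00307 at 44 °C and 0.0423 and 0.114 at 42 °C. Of the 70 pairs that persisted, 15 had a DoG call in both 42 °C libraries, as did 17 of the other 97.

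Of 39 pairs of Hist genes in all, 4 were members, each joining genes of a Hist1 cluster. Most replication-dependent histone mRNAs end in a stem-loop without a poly(A) tail, and the libraries were polyA-selected. Hist1h2bf-Hist1h2ae had 0.209 and 0.816 at 44 °C and 0.0872 and 0.131 at 42 °C, and Hist1h3d-Hist1h4d had 0.0526 and 0.307, then 0.0613 and 0.0368. Hist1h2bk-Hist1h2bj had 0.0286 and 0.0306 at 44 °C and 0.0804 and 0.143 at 42 °C, and Hist1h4c-Hist1h2ac 0.0541 and 0.0406 at 44 °C and 0.0812 and 0 at 42 °C. Of the 4 pairs, 3 thus persisted in both 42 °C libraries. Histone genes are near-identical copies, and how reads were divided among them cannot be checked from these files, so these values are uncertain.

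The genes of a member pair lay closer together than those of pairs in general, but many were far apart. Of the 167, 153 could be placed on GRCm38.p6, with a median gap of 22037 bases (quartiles 6026 and 67084) against 38085 bases over 5879 placed pairs. The 84 left-out pairs shared with H2O2 or KCl had a median of 9185 bases over the 78 placed. The gap was at most 5000 bases in 34 members (22.2%, against 16.4% of all pairs) and over 100000 bases in 29 (19.0%, against 30.7%). It ran from 40 bases to the 2808327 bases of Med10-Irx2, whose estimates were 0.00649 and 0.00446 at 44 °C. In all 111 members with a strand for both genes, the order of the genes was that of their strand.

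Upstream genes of the members were expressed at ordinary levels, and downstream genes at higher levels than in pairs in general. The median upstream level was 42.5 and 42.6 TPM in the heat control, 42.5 and 39.96 TPM at 44 °C and 32.7 and 33.1 TPM at 42 °C, where all pairs had 36.5 and 37.0, 38.3 and 37.5, and 32.5 and 32.8 TPM. The median downstream level was 33.2 and 33.0 TPM in the heat control, 33.3 and 32.2 TPM at 44 °C and 31.2 and 31.3 TPM at 42 °C, against 15.0 and 15.0, 16 and 15.7, and 12.3 and 12.4 TPM over all pairs. The upstream gene was the more strongly expressed of the pair in 54.4% of 160 members and in 65.8% of 6175 pairs. An estimate above 0 needs a downstream gene with reads, and 776 downstream genes of all pairs were at 0 TPM in both heat controls, against 0 of the members'. In the footprints of the H2O2/KCl control the downstream genes had medians of 19.2 and 19.0 TPM, against 6.79 and 6.27 TPM over all pairs, and 14 of 160 (8.75%, against 23.3% over all pairs) were at 0 in both libraries.

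At 42 °C the RNA of upstream genes was more often lower than higher. Of 156 upstream genes that passed the filter on low counts, edgeR's quasi-likelihood test (Benjamini-Hochberg adjusted p under 0.05 over all 12747 genes) called 44 higher and 68 lower, with a median log2 change of -0.10. Over all genes 31.7% were higher and 31.9% lower, with a median of -0.01, so the upstream share of lower genes (43.6%) was above the background and that of higher genes (28.2%) near it. Of 159 downstream genes tested, 62 (39.0%) were called higher and 42 (26.4%) lower, with a median of 0.05. The reference of this test is the heat control, which the rule also used. The members' calls at 42 °C are thus not independent of the rule, and neither are their shares beside the background. With limma on log2(TPM + 1), where the median of all genes moved to -0.18, 16.2% of all genes were called higher and 51.6% lower. On that scale 26 upstream genes were higher and 100 lower, and 29 downstream genes were higher and 74 lower. Most changes were small: 5 of 156 upstream and 11 of 159 downstream genes were called with a rise of at least 2-fold, and 9 and 4 fell as much. Over all 12747 genes, 360 rose and 650 fell by this limit.

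**Figure D5:**
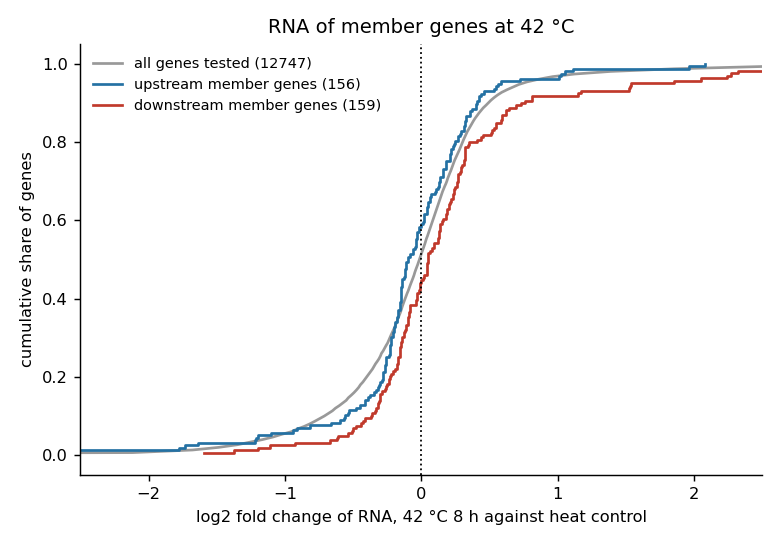
Cumulative share of genes (vertical axis) by log2 fold change of RNA at 42 °C 8 h against the heat control (horizontal axis, from edgeR) for upstream member genes, downstream member genes and all genes tested. The upstream curve lies left of 0 at its middle (median -0.10) and the downstream curve right of it (median 0.05), with the downstream curve reaching further to the right.

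Upstream genes that rose at 42 °C were led by Zfas1, a long noncoding RNA that hosts snoRNAs, and Fosl1, an AP-1 subunit. Zfas1 was at 75.6 and 73.7 TPM in the control and 143 and 140 TPM at 42 °C, and its log2 change was 1.11 (SE 0.067, edgeR adjusted p = 7.54e-09, n = 2 per group). Fosl1 rose from 30.6 and 30.1 TPM to 52.4 and 54.8 TPM (log2 change 1.01). Mtfr2, a mitochondrial fission regulator, and Ybx3, a cold shock domain protein, followed with log2 changes of 0.72 and 0.58. The largest falls among upstream genes were those of Zfp867 (log2 change -2.64), of Carmn, a noncoding RNA that hosts microRNAs (-1.73), and of Herpud1, a protein of endoplasmic reticulum quality control, which went from 114 and 112 TPM to 30.9 and 32.9 TPM (-1.64). The estimates of 2 of these pairs are given beside the RNA. Zfas1-Slc9a8 had 0.0127 and 0.03 at 44 °C, where Zfas1 was at 131 and 142 TPM, and 0 and 0 at 42 °C, and Herpud1-Nlrc5 had 0.011 and 0.0197 at 44 °C and 0 and 0.0564 at 42 °C.

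Among downstream genes, Styk1, a kinase-like receptor gene behind Ybx3, rose from 4.83 and 4.70 TPM to 12.37 and 12.01 TPM at 42 °C (log2 change 1.54, SE 0.09, edgeR adjusted p = 4.81e-09, n = 2 per group). The estimates of Ybx3-Styk1 were 0.0309 and 0.0476 at 44 °C and 0.0161 and 0 at 42 °C. Hsp90aa1 rose by a log2 change of 1.53, Irx2, a homeobox gene, by 0.76 and Nr4a1, an immediate early nuclear receptor gene, by 0.69. The falls were led by Emilin1, an extracellular matrix glycoprotein gene, from 207 and 216 TPM to 58.4 and 64.4 TPM (log2 change -1.59), followed by Zswim3 (-1.37) and Sfi1, a centrosomal protein gene (-1.11). Zswim3 was at 6.9 and 7.27 TPM in the control and 2.41 and 2.4 TPM at 42 °C, but at 15.1 and 14.7 TPM at 44 °C, on the other side of its control.

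For the 19 downstream genes below 1 TPM in the heat control, the levels are given separately. Their median was 0.11 and 0.17 TPM in the heat control, 0.66 and 0.81 TPM at 44 °C, 0.48 and 0.35 TPM at 42 °C and 0.12 and 0.14 TPM in the H2O2/KCl control. At 44 °C, which chose the pairs, 18 of the 19 were above both controls in both libraries, against 27.7% of 1927 such genes in other pairs. At 42 °C 11 of the 19 were, against 14.3%. The 1927 genes include 776 at 0 TPM in both heat control libraries, and the 19 include none. Both temperatures are also set against the control that the rule used, so these shares are a description. Gpr62 stood at 0.04 and 0.12 TPM in the control, 0.27 and 0.64 TPM at 44 °C and 1.01 and 1.42 TPM at 42 °C, with a log2 change at 42 °C of 4.21 (SE 0.50, edgeR adjusted p = 4.9e-06, n = 2 per group). Bnipl (log2 change 2.27), Fscn3 (2.59) and Cryba4 (1.52) were also called higher at 42 °C. Misp, at 0.04 and 0.03 TPM in the control and 1.16 and 1.42 TPM at 44 °C, was at 0.02 and 0.23 TPM at 42 °C (log2 change 1.85, edgeR adjusted p = 0.117), and Tnfrsf13c (1.15, edgeR adjusted p = 0.193) was not called either. Reads of a transcript from upstream and reads from the gene's own promoter cannot be told apart in these levels.

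The calls at 42 °C were also counted within pairs. Of 148 pairs with both genes tested, 13 had both genes higher and 15 both lower, while 30 had the upstream gene lower and the downstream gene higher and 11 the opposite. The remaining 79 had at least 1 gene not called. Over 4592 such pairs in all, the shares were 13.3%, 11.2%, 9.28% and 10.1% in the same order. After 7 h of H2O2, 26 of 149 pairs had both genes higher and 15 both lower, and the directions differed in 16 and 18. With KCl, both were higher in 23 and lower in 24, and the directions differed in 16 and 21. For 4898 such pairs in all, the H2O2 shares were 16%, 11.7%, 12.1% and 11.2% in the same order. The KCl shares were 14.5%, 12.4%, 12% and 11.4%. In pairs that persisted, downstream genes were higher at 42 °C in 28 and lower in 17 of 67 tested (median log2 change 0.09). In the others they were higher in 34 and lower in 25 of 92 (0.04). Upstream genes were higher in 18 and lower in 23 of 67 in the first (median -0.03), and higher in 26 and lower in 45 of 89 in the second (-0.14). The difference between persisting and other pairs was not tested.

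At 44 °C for 2 h, the contrast that chose the pairs, the median log2 change was 0.01 for upstream and 0.14 for downstream genes, given as a description. In the H2O2/KCl experiment, whose libraries had a part in the rule only through its control and 2 h groups, 70 of 155 upstream genes were higher and 48 lower after 7 h of H2O2 (background 39.4% and 31.1%), and 58 higher and 67 lower after 7 h of KCl (background 37.2% and 31.6%). Of 158 downstream genes, 56 were higher and 53 lower with H2O2 and 52 higher and 64 lower with KCl. Fosl1 was opposite in the 2 stresses, with log2 changes of 3.14 after H2O2 and -1.07 after KCl.

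Of 25 genes for cleavage, polyadenylation and termination, 16 were higher at 42 °C and 4 lower, with a median log2 change of 0.17 (on log2(TPM + 1), 8 were higher). The rises were led by Pcf11, a cleavage factor that couples the poly(A) signal to termination, with 0.53, and the falls by Clp1, a subunit of the same cleavage factor, from 21.1 and 19.5 TPM to 7.41 and 6.43 TPM (log2 change -1.49). At 44 °C their median log2 change was 0.15, with 0.50 for Pcf11 and 0.49 for Clp1. None of these genes is in a member pair, but the contrast chose the pairs, so the edgeR counts there (14 higher and 5 lower, over a background of 35.4% higher and 35.7% lower of all genes) are printed with nothing read from them. Xrn2, the exonuclease of termination, was at 103 and 100 TPM in the heat control, 65.0 and 61.8 TPM at 44 °C and 105 and 104 TPM at 42 °C, with both 44 °C values below the control and both 42 °C values at or above its higher one.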

How the data were processed

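Of 26 libraries from NIH3T3 cells in 13 groups of 2, the 16 polyA-selected RNA libraries were analysed and the 10 footprint libraries served for levels of downstream genes. The authors deposited expected counts per gene, named for RSEM and used unchanged since all were whole, and TPM values of the same libraries. The authors deposited the read-in estimate as a ratio without its formula, and true or false calls of DoG and read-in per pair. STAR, RSEM, Bowtie and mm10 are listed in the submitters' processing notes, without roles or versions. Another 12 columns belong to no sample of the labels and were left out.

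Pairs were selected by the stated rule, and the members and gene lists were chosen with earlier results of these data known. RNA was tested with edgeR 4.0.16 (quasi-likelihood, TMM, filterByExpr, all groups of an experiment in 1 fit, no covariates; R 4.3.3), fitted over all genes that passed the filter, with Benjamini-Hochberg adjusted p under 0.05. Of the member genes, 156 of 167 upstream and 159 of 167 downstream passed in the heat experiment; 2 upstream and 5 downstream names have no RNA row. SE is that of the log2 fold change. In counts simulated from these libraries for the 42 °C comparison (12606 genes, 200 changed), 89% of changed genes were recovered, 78% of those changed 1.5-fold, and 10.1% of calls were false. The data differ from this setting, with 4041 genes called higher and 4072 lower of 12747, so these shares may not carry over.

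Named pairs were the 8 with the highest lower estimate at 44 °C and at 42 °C, the 5 just inside and 3 just outside the rule, the pair on the HSF1 list, and the 4 largest rises and 3 largest falls per role at 42 °C among genes whose average log2 CPM was 1 or more; others are named as examples of a count or after their values were seen. Of the pairs under this rule, 1 is not reported here. Promoter windows and positions come from RefSeq GRCm38.p6, the assembly that mm10 represents. Alternatives were DESeq2 1.42.0 and its size factors, limma 3.58.1 on log2(TPM + 1) and log2(TPM + 0.1), no filter, the compared groups alone, a 2-fold minimum, a replicate block, leaving out each library, and other thresholds of the estimate. Total counts ranged from 24441877 to 45244430 per RNA library; an estimate of 0 at this depth says that none was detected.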

Additional observations from a re-analysis of the deposited data

How the results depend on the processing

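Single-gene results were recomputed only for the genes named as the largest rises and falls per role at 42 °C. All 154 recomputed values kept their direction. Those from fits with both libraries of each group also kept their side of the threshold. The changes of Gpr62, Bnipl, Fscn3, Cryba4, Misp, Tnfrsf13c, Pcf11 and Clp1 were not recomputed, nor were those of Fosl1 after H2O2 and KCl. The size of the set depended on the rule: 26 pairs with estimates of at least 0.05 in both 44 °C libraries, 251 with the shared pairs kept, 51 when also at 0 in both H2O2/KCl control libraries (chosen after seeing the data), and 356 to 364 without 1 of the heat libraries, against 167. Persistence in both 42 °C libraries, 70 of 167, became 120 of 167 with 1 library sufficing, 14 of 26 at a threshold of 0.05, 16 of 51 with the second control also at 0, and 32 of 167 by DoG calls. At 42 °C, limma on log2(TPM + 0.1) and log2(TPM + 1) called 1897 and 1898 of all genes higher (4041 with edgeR), 25 and 26 upstream genes higher (44), 29 and 29 downstream genes higher (62), 74 and 74 downstream genes lower (42), and 8 and 8 cleavage and termination genes higher (16); these scales moved the median of all genes to -0.19 and -0.18.

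With a 2-fold minimum at 42 °C, 360 genes were higher and 650 lower in all, 5 and 9 upstream, 11 and 4 downstream, 10 HSF1 chaperone genes were higher, and 0 and 1 cleavage and termination genes were higher and lower; at 44 °C, 10 HSF1 chaperone genes were higher, and 0 and 0 of the cleavage and termination genes were higher and lower. After 7 h of H2O2 the counts were 2172 and 919 in all, 27 and 8 upstream, 24 and 7 downstream, and after 7 h of KCl 1412 and 1031 in all, 10 and 12 upstream, 17 and 16 downstream. Fewer genes pass a stricter limit by its construction; the cause of the other shifts was not tested. Replicate numbers did not pair the libraries (correlations of -0.0247 to 0.117 in heat), and with a replicate block 44 upstream genes were higher and 70 lower at 42 °C, and 62 downstream genes higher and 43 lower. The remaining counts stayed within 1.5 times. With 2 libraries per group, and estimates of 1 or 2 steps at 44 °C in 27 of the 41 pairs with steps, an estimate of 0 says only that none was detected.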
